A study of Mus musculus with 3 samples.

Results

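Liver-type plasma proteins are secreted into the blood by hepatocytes, and 9 of their genes were followed here across the germ layers of the E7.5 mouse embryo: *Afp*, *Alb*, *Ttr*, *Rbp4*, *Fga*, *Fgb*, *Fgg*, *Ambp* and *Ahsg*. The genes were chosen by symbol for what they encode, with earlier results of these data known. Reads were found on 17633 genes in all, and 8 of the 9 were among them. The exception was *Alb*, which encodes albumin and was listed in none of the tables used here. Endoderm, mesoderm and epiblast of ICR embryos were sequenced as 1 library each. No genotype or treatment distinguished the libraries, and each held RNA pooled from many embryos. The germ layers had been separated with enzymes and glass needles from the embryonic region, so the extra-embryonic part was cut away before the layers were parted. With 1 library per layer, no difference given here has a replicate check.

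The visceral endoderm is the epithelium that surrounds the epiblast before the liver exists. It takes up maternal nutrients from its outer face and secretes carrier proteins, apolipoproteins and clotting factors towards the embryo, many of which are later made by hepatocytes. Alpha-fetoprotein, the product of *Afp*, is the main plasma carrier of the yolk sac and fetal liver, and albumin replaces it as the liver matures. Transthyretin (*Ttr*) and retinol-binding protein (*Rbp4*) travel together in plasma and carry thyroid hormone and vitamin A. *Fga*, *Fgb* and *Fgg* encode the α, β and γ chains of fibrinogen, the precursor of the fibrin clot. *Ambp* encodes a precursor that is cut into α1-microglobulin and the protease inhibitor bikunin, and *Ahsg* encodes fetuin-A, an inhibitor of mineral deposition.

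The promoters of 5 of these genes are given because they belong to 2 loci that differ in how their genes were read. *Alb* and *Afp* lie head to tail in GRCm38, with a gap of 14.1 kb between them, and *Fgg*, *Fga* and *Fgb* lie within 42.1 kb. Each sequence holds the 250 bases before the start of the gene as RefSeq annotates it in GRCm38.p6, written 5′ to 3′ along the strand of the gene. Capitals mark the words searched for on both strands. For the hepatocyte factor HNF4 the word was CAAAGNNCA. The forkhead factors of the FOXA family were searched with the word TGTTTNC, and the C/EBP factors of the liver with TTGCNNAA. For the GATA factors of the endoderm the word AGATAA was used, and for the nuclear receptor NR5A2 the word CAAGGNCA. The word for the TATA box of the core promoter was TATAAA.
Afp, chr5:90490464-90490713, plus strand: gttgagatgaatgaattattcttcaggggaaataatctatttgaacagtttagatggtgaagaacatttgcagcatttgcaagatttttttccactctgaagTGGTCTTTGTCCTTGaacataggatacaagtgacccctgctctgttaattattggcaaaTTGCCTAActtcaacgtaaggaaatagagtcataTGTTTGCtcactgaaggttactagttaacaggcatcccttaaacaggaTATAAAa
Alb, chr5:90460620-90460869, plus strand: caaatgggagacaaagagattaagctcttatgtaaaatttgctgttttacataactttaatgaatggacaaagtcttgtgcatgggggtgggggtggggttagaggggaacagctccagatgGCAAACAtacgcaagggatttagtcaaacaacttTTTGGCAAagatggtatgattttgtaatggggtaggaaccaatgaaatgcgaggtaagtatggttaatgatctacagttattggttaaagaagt
Fga, chr3:83025903-83026152, plus strand: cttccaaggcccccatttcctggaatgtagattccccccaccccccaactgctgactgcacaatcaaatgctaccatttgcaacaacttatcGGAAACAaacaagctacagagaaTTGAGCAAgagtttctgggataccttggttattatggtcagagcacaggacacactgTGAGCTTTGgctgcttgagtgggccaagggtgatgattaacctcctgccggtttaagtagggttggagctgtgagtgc
Fgb, chr3:83049864-83050113, minus strand: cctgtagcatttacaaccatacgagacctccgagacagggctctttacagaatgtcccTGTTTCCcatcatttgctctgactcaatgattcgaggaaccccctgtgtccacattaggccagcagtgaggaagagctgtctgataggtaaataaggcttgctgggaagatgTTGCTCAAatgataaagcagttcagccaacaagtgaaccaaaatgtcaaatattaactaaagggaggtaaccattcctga
Fgg, chr3:83007474-83007723, plus strand: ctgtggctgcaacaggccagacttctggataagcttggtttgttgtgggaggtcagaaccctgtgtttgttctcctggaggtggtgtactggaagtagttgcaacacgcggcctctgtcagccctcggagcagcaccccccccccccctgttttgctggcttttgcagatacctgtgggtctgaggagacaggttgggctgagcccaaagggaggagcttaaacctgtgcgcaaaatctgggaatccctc

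RefSeq windows were found for 8 of the 9 genes, with 2 windows for *Rbp4*. The FOXA word stood in 7 of these 9 windows and in 17.8% of all 32851 promoter windows of the same length. The C/EBP word stood in 6 of 9, against 9.56% of all windows. The HNF4 word was found in 2 (*Afp* and *Fga*), against 5.49%. The *Afp* window held 5 of the 6 words, and those for HNF4 and NR5A2 share bases in it. The *Alb* window held 2 and the *Fgg* window none. Words for NR5A2 (5.53% of all windows) and the TATA box (12.4%) each stood in 2 of the 9, and the GATA word (9.99%) in 0. These are matches of letters, described without a test. A further planned word was left out, so the counts do not cover every word planned.

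Reads counted on genes came to 41.7 M for endoderm, 40.8 M for mesoderm and 42.7 M for epiblast, with a median of 576, 536 and 536 reads per listed gene. The endoderm label was compared with marker genes, since the labels do not say visceral. The lists were chosen with earlier results of these data known, so this is not an independent check. All 14 visceral endoderm markers, such as *Apoa1* and *Cubn*, were higher in endoderm than in both other layers. Of 8 markers of definitive endoderm, 5 were called higher in endoderm than in both, such as *Sox17* and *Cer1*. *Cxcr4* was called higher in mesoderm than in endoderm, with 655 reads in endoderm and 2004 in mesoderm. *Gsc* had 11, 10 and 20 reads in endoderm, mesoderm and epiblast, and *Nepn* had 107, 34 and 0 and was not called. The endoderm was sequenced as 1 library, so visceral and definitive endoderm cannot be told apart in it. Of the mesoderm markers 7 of 7 were highest in mesoderm, and of the epiblast markers 6 of 7 were highest in epiblast. Of 7 parietal endoderm markers 7 had reads, with a summed RPKM of 397, 214 and 128 in endoderm, mesoderm and epiblast. *Sparc* (165) and *Col4a1* (160) gave most of the endoderm sum. *Plat* and *Col4a1* were called higher in endoderm than in both. *Fst* was called lower in endoderm than in both (RPKM of 2.35, 14.5 and 50.7), and *Thbd* and *Lama1* were highest in mesoderm. Of 9 trophoblast markers 7 had reads (summed RPKM of 55.4, 35.8 and 54.8), and *Tpbpa* and *Prl3d1* were listed in no library. *Esx1* and *Plac1* were called higher in endoderm than in both. The other 5 with reads were highest in epiblast, and *Cdx2* was called higher in epiblast than in endoderm (RPKM of 37.1 and 18.4). Of 7 decidual markers 5 had reads (37.0, 50.5 and 26.4), 0 were called higher in endoderm than in both, and *Prl8a2* and *Prl3c1* were unlisted. Of 6 erythroid markers 3 had reads (3.39, 4.44 and 0.905), and the globin genes *Hba-x* and *Hbb-y* were unlisted. The part of these tissues in the levels of the 9 genes was not tested.

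Together the 9 genes took 139911 reads in endoderm, which is 0.336% of the reads counted there. They took 135 reads in mesoderm and 141 in epiblast. *Afp*, *Ttr* and *Rbp4* made up 92.0% of the reads of the 9 genes in endoderm, and the fibrinogen chains 7.16%. By level, *Afp*, *Ttr* and *Rbp4* were very high and the fibrinogen genes and *Ambp* intermediate, while *Ahsg* and *Alb* had few or no reads.

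**Figure D1:**
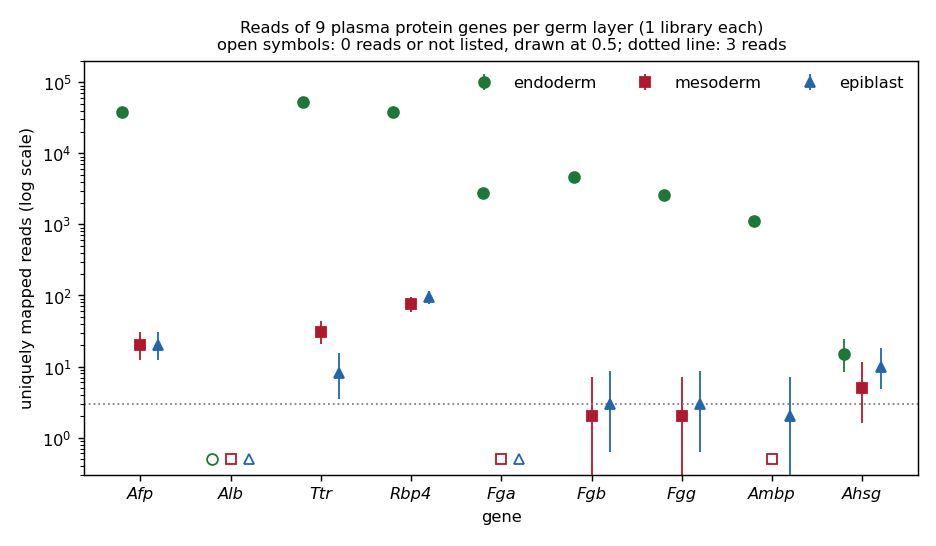
Uniquely mapped reads (log axis) of the 9 plasma protein genes in the endoderm, mesoderm and epiblast libraries, with 95% exact Poisson intervals as lines. Open symbols mark 0 reads or a gene that was not listed, and the dotted line marks 3 reads. 7 genes had between 1129 and 52171 reads in endoderm and at most 95 in either other layer, while *Ahsg* had 15, 5 and 10 reads and *Alb* none.

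*Ttr*, *Rbp4* and *Afp* had the highest levels. *Ttr* had 52171 reads in endoderm against 31 in mesoderm and 8 in epiblast. In RPKM, which scales reads by gene length and by the library total, these were 1013, 0.613 and 0.151. *Ttr* was thus the 64th highest of the 16385 genes with reads in endoderm, and reads covered 96.7% of its length. The RPKM in endoderm was 1650-fold that in mesoderm (95% counting interval 1163 to 2429) and 6686-fold that in epiblast (3393 to 15487). Because each library is a bulk sample, fewer cells that express the gene and less RNA per cell cannot be told apart. *Ttr* lies on chromosome 18 from 20665280 to 20674321 and has 4 exons.

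*Rbp4* had 38236 reads in endoderm against 75 in mesoderm and 95 in epiblast, with RPKM values of 738, 1.48 and 1.79. It ranked 99th in endoderm, with 99.3% of its length covered. The endoderm level was 500.0-fold that of mesoderm (399 to 636) and 413-fold that of epiblast (337 to 510). *Rbp4* had the most reads of the 9 genes outside endoderm. Its few reads in mesoderm still touched 77.0% of the gene length, and those in epiblast 88.0%. Its RPKM in endoderm was below that of its plasma partner, with a *Ttr* to *Rbp4* ratio of 1.37. *Rbp4* lies on the minus strand of chromosome 19 (38116629 to 38125281).

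*Afp* had 38348 reads in endoderm and 20 reads in each of mesoderm and epiblast. Its RPKM was 441 in endoderm against 0.235 in mesoderm and 0.225 in epiblast. It ranked 157th in endoderm. The level was 1880-fold that of mesoderm (1217 to 3079) and 1966-fold that of epiblast (1273 to 3219). Its reads were nearly equal in number to those of *Rbp4*, while its RPKM was lower because the deposited gene length is 2086 bases for *Afp* and 1243 for *Rbp4*.

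*Alb*, which lies next to *Afp* and belongs to the same family, gave a different picture. No reads were listed for it in endoderm, mesoderm or epiblast, nor under its older symbols. A count of 0 allows up to 3 reads in each library (floor for counting error only). Whether *Alb* was part of the annotation used for counting is not given in the sources used here. If it was, the *Afp* reads in endoderm were 12783 times this floor of 3 reads, and the interval allows a lower ratio. The next gene downstream, *Afm* (afamin, a vitamin E carrier of the same family), had 1 read in endoderm and 0 in the other layers. *Gc*, the vitamin D-binding protein and a further member of the family, had 436 reads in endoderm and 2 in each other layer, which is an RPKM of 5.78 in endoderm. Of these 4 albumin family genes, *Afp* alone had more than 436 reads. *Ankrd17*, upstream of *Alb*, was read at a similar depth in the 3 layers, with 13943, 12171 and 11686 reads in endoderm, mesoderm and epiblast.

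**Figure D2:**
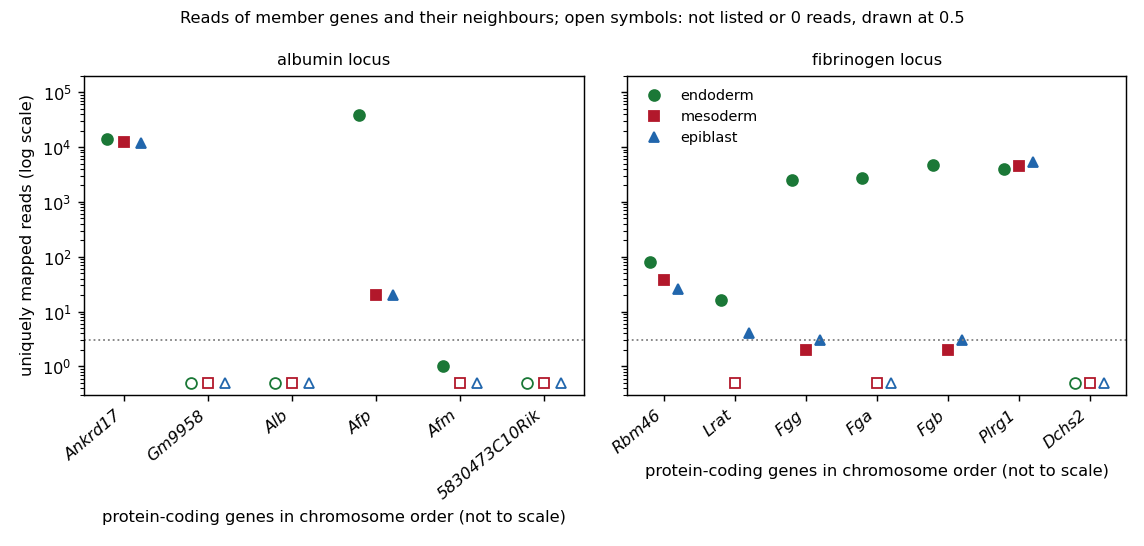
Uniquely mapped reads (log axis) of the protein-coding genes at the albumin locus (left) and the fibrinogen locus (right), in chromosome order and not to scale. Open symbols mark genes not listed or with 0 reads. *Afp* stood at 38348 reads in endoderm beside *Alb* with none and *Afm* with 1, whereas *Fgg*, *Fga* and *Fgb* had 2555, 2792 and 4665.

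The fibrinogen genes were all read in endoderm. *Fgb* had 4665 reads in endoderm against 2 in mesoderm and 3 in epiblast. *Fga* had 2792 reads in endoderm and 0 in both other layers. *Fgg* had 2555, 2 and 3 reads. All chains of the fibrinogen hexamer were therefore read at 2555 reads or more in endoderm and at no more than 3 reads elsewhere. In endoderm the RPKM was 71.1 for *Fgb*, 39.9 for *Fgg* and 19.9 for *Fga*. The endoderm level of *Fgb* was 2287-fold that of mesoderm (633 to 18894) and 1594-fold that of epiblast (545 to 7733). For *Fgg* the ratios were 1253 (346 to 10351) and 873 (298 to 4237), and *Fga* was at least 913-fold higher than in mesoderm and at least 954-fold higher than in epiblast, computed against the floor of 3 reads. The exact 95% counting intervals of the *Fga* ratios began lower, at 742 and 775. An exon of *Fgg* overlaps the non-coding RNA *Gm30097* on the opposite strand, and use of strand in the counting is not given, so its reads are uncertain to that extent.

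The order of the chains rested on the gene length. The deposited RPKM used lengths of 1575 bases for *Fgb*, 3373 for *Fga* and 1536 for *Fgg*, whereas the transcripts in GENCODE M21 are 3810 bases for *Fgb*, 2083 or 2587 for *Fga* and 1695 or 1741 for *Fgg*. With the same reads and these transcript lengths, the RPKM was 29.4 for *Fgb*, 32.2 or 25.9 for *Fga* and 36.2 or 35.2 for *Fgg*. The *Fgb* to *Fga* ratio was 3.58 in the deposited RPKM, and with the transcript lengths the 2 chains were close to each other and *Fgg* was highest. The genes lie on chromosome 3, with *Fgg* (83007724 to 83015049) and *Fga* (83026076 to 83033627) on the plus strand and *Fgb* (83040141 to 83049863) on the minus strand. *Plrg1*, a splicing factor gene next to *Fgb*, was read in every layer, with 4006, 4483 and 5313 reads. *Lrat*, which esterifies retinol and lies on the other side, had 16 reads in endoderm against 0 in mesoderm and 4 in epiblast.

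*Ambp* had 1129 reads in endoderm against 0 in mesoderm and 2 in epiblast, and an RPKM of 22.0 in endoderm. The endoderm level was at least 369-fold higher than in mesoderm against the floor of 3 reads (the interval began at 299.7) and 579-fold that in epiblast (160 to 4785). Its reads covered 97.9% of the gene. *Ambp* lies on the minus strand of chromosome 4 (63143275 to 63154799). The gene next to it, *Kif12*, a kinesin gene, had 437 reads in endoderm against 0 in mesoderm and 1 in epiblast.

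*Ahsg* was the exception among the listed genes. It had 15 reads in endoderm against 5 in mesoderm and 10 in epiblast, with RPKM values of 0.244, 0.0830 and 0.159. The ratio of endoderm to mesoderm was 2.94, with an interval (1.02 to 10.3) that barely left out equality, and that of endoderm to epiblast was 1.54 (0.646 to 3.83), so that a difference from epiblast was not detectable at this depth. *Ahsg* ranked 13103rd in endoderm, and an antisense gene, *Gm30505*, overlaps its exons on chromosome 16, so that even these reads are uncertain. Its neighbour and paralog *Fetub* (fetuin-B) had 73 reads in endoderm against 4 in mesoderm and 6 in epiblast.

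**Figure D3:**
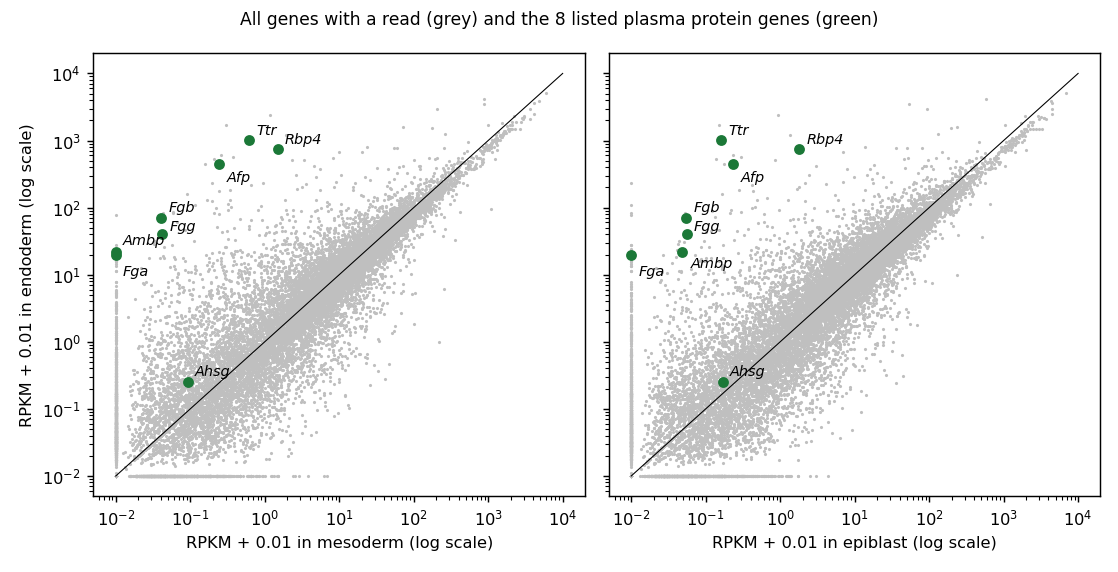
RPKM in endoderm against RPKM in mesoderm (left) and epiblast (right), on log axes after adding 0.01, for all genes with a read (grey) and the 8 listed plasma protein genes (green). The line marks equal levels. 7 of the genes lie far above it, from *Fga* at 19.9 to *Ttr* at 1013 RPKM in endoderm, while *Ahsg* lies close to it.

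Differential expression was called with the criteria of the study: RPKM>5 in at least 1 of 2 libraries, Fold Change>2 and FDR<0.001 from the Audic and Claverie exact test of read numbers, which covers counting noise between 2 libraries only. *Afp*, *Ttr*, *Rbp4*, *Fga*, *Fgb*, *Fgg* and *Ambp* were called higher in endoderm than in mesoderm, 7 of the 9 genes, where 7.44% of all 17194 genes tested were called. The same 7 were called higher than in epiblast, where the share was 8.02% of 17267. 5.78% of all genes were called higher than in both, and 10.7% without the RPKM criterion. *Alb* had no test and *Ahsg* did not meet the criteria, with an FDR of 0.0411 against mesoderm and 0.346 against epiblast. Over the 8 listed genes the median log2 ratio was 9.77 to mesoderm and 9.83 to epiblast (low denominators set to 3 reads), against −0.11 and −0.11 over all genes.

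All 7 called genes were over 100-fold higher in endoderm than in both other layers. Of the 8137 genes with RPKM>5 in endoderm, 1.06% were. The lowest of these ratios, with denominators of at most 3 reads set to 3, were 369 to mesoderm and 386 to epiblast. By the deposited RPKM the levels in endoderm spanned 51.0-fold, from *Fga* to *Ttr*, and fell in the order *Ttr*, *Rbp4*, *Afp*, *Fgb*, *Fgg*, *Ambp*, *Fga* and *Ahsg*. Counting intervals of neighbours did not overlap, and the closest were *Ambp* (20.7 to 23.3) and *Fga* (19.1 to 20.6). The order from *Fgb* to *Fga* held for the deposited lengths only: with the GENCODE M21 transcript lengths used above, *Ambp* (21.4 for its transcript of 10 exons) lay below *Fga* (32.2 or 25.9), and *Fgg* lay above *Fgb*.

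Between mesoderm and epiblast 0 of the 9 genes were called, where 5.04% of all genes were. *Ttr* had the lowest p-value, at 0.000105 (FDR of 0.000236): its RPKM was 4.05-fold higher in mesoderm (1.82 to 10.2), from 31 and 8 reads, and it failed the criterion of RPKM>5. *Afp* had 20 reads in each layer and a ratio of 1.05 (0.534 to 2.05), and *Rbp4* had 75 and 95 reads and a ratio of 0.825 (0.601 to 1.13). The other genes had 10 reads or fewer in both layers. None of the others was below 0.05 unadjusted.

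Levels left in mesoderm and epiblast were compared with those of the visceral endoderm markers. *Afp* was present at 0.0532% of its endoderm RPKM in mesoderm and at 0.0509% in epiblast, *Ttr* at 0.0606% and 0.0150%, and *Rbp4* at 0.20% and 0.24%. The median over the 8 listed genes was 0.0569% in mesoderm and 0.0886% in epiblast. Over the 14 markers it was 0.0611% (range 0.0174 to 7.88%) in mesoderm and 0.118% (0.00834 to 22.2%) in epiblast, while over all genes the layers stood at 104% and 103% of endoderm. *Apoa1* and *Apob* lay within the counting intervals of *Afp* in both layers and *Cubn* in mesoderm, while *Dab2* and *Lrp2* lay far above. The part of endoderm cells left in the other layers in these reads was not tested.

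**Figure D4:**
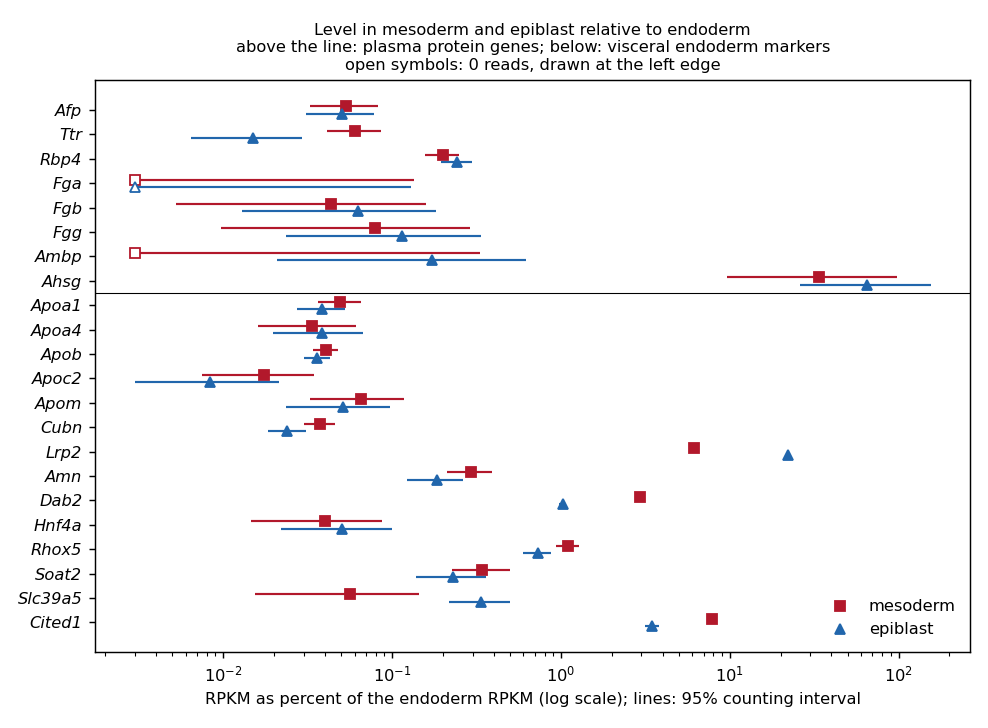
RPKM in mesoderm (squares) and epiblast (triangles) as a percent of the endoderm RPKM (log axis) for the plasma protein genes, above the line, and for 14 visceral endoderm markers, below it. Lines are 95% counting intervals and open symbols mark 0 reads. The called plasma protein genes stood at or below 0.242%, as did markers such as *Apoa1* and *Cubn*, while *Ahsg* stood at 34.0% and 65.0%.

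By the Euclidean distance over the 3 libraries in log2(RPKM+0.1), the gene outside the 9 that was nearest to *Afp* was *Apob*, the core protein of lipoproteins (distance of 0.49), with RPKM values of 618, 0.251 and 0.224 in the order given above. *Apoc2*, the activator of lipoprotein lipase, was nearest to *Ttr* (1.13), and *Spink3*, a secreted trypsin inhibitor, to *Rbp4* (0.90). *Hnf4a*, a liver transcription factor gene, was nearest to *Fgb* (0.25), with 15342, 6 and 8 reads. *Habp2* was nearest to *Fgg* (0.38), *Lect2* to *Fga* (0.10) and *Muc13* to *Ambp* (0.12).

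Other genes of plasma protein biology were set beside the 9 in 9 lists of 87 genes, 76 of which had reads. Of the 87, 20 were called higher in endoderm than in both other layers. Of all genes 5.78% were, and 10.7% without the RPKM criterion. The lists were chosen with earlier results known, so their shares are descriptive. Among 25 other liver-type plasma proteins, 6 were called. *Trf* (transferrin, the iron carrier) had 17139 reads in endoderm against 22 in mesoderm and 42 in epiblast, and *Serpinf2* (the plasmin inhibitor) had 2640, 2 and 3. *Cfb*, *Vtn*, *Gc* and *Igfbp1* were the others. *Hp* (haptoglobin), *Apoh*, *Orm1*, *Azgp1* and *Serpina7* were listed in no library, and *Cp* (ceruloplasmin) had 2 reads in endoderm. Of 5 genes of the α1-antitrypsin cluster none was called, with *Serpina1b* at 38 reads in endoderm and 0 elsewhere, and near-identical copies make unique reads uncertain here. The other plasma proteins of the later liver were represented unevenly: 15 of the 25 had over 3 reads in any library, and over these 15 the log2 ratio to mesoderm had a median of 3.70, against −0.11 over all genes.

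Partners of the 9 proteins were listed separately. Of the genes that act on fibrin, *F2* (prothrombin) had 1315 reads in endoderm and 6 in each other layer, and *Plg* (plasminogen) had 2264, 0 and 2. These 2 were called, of 6 genes. *F13b* and *Fgl1* had 2 reads each in endoderm, and *F13a1* had 0. The heavy chain genes *Itih1*, *Itih2* and *Itih3*, whose products are joined to bikunin, had 64 reads in endoderm in all, compared with 1129 for *Ambp*. *Itih5*, by contrast, was lowest in endoderm, with 188, 451 and 376 reads. Of the 6 genes in this list, which holds *Itih4*, *Itih5* and *Tnfaip6* too, 0 were called, and 3 were called without the RPKM criterion. The partners of fibrinogen thus included 2 genes with at least 1315 reads in endoderm, and none of *Itih1*, *Itih2* and *Itih3* had more than 33.

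Of 7 genes of vitamin A handling, 0 were called higher in endoderm than in both other layers, and 2 without the RPKM criterion. Their median log2 ratio was 1.18 to mesoderm and 2.03 to epiblast. *Stra6*, the cell surface receptor of retinol-binding protein, had 465 reads in endoderm against 2659 in mesoderm and 401 in epiblast, and was called higher in mesoderm than in endoderm and epiblast. *Rdh10*, which oxidises retinol, was called higher in endoderm than in epiblast, with 1324 and 332 reads. *Stra6l*, the related receptor, had 273 reads in endoderm against 24 in mesoderm and 38 in epiblast, under its older symbol.

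Of 7 genes of uptake receptors, 5 were called, with a median log2 ratio of 5.08 to mesoderm and 6.35 to epiblast. *Cubn* (cubilin) had 247454 reads in endoderm against 91 in mesoderm and 61 in epiblast, and *Dab2*, its endocytic adaptor, had 128693, 3730 and 1350. *Amn* (the anchor of cubilin), *Lrp2* (megalin) and *Fcgrt* (the receptor that recycles albumin and IgG) were called as well. *Cubn*, *Lrp2*, *Amn* and *Dab2* also stand among the visceral endoderm markers above, as does *Hnf4a*. *Asgr1* and *Asgr2*, the asialoglycoprotein receptor of hepatocytes, had 10 and 22 reads in endoderm.

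Liver transcription factors were called in 5 of 14 cases, among them *Hnf4a*, *Foxa1*, *Foxa2* and *Foxa3*. The median log2 ratio of the 14 was 1.41 to mesoderm and 4.02 to epiblast. *Foxa2* had 3895 reads in endoderm against 121 in mesoderm and 234 in epiblast. *Cebpa*, which drives hepatocyte genes, had 8 reads in endoderm against 57 in mesoderm and 47 in epiblast. *Gata6* was called higher in mesoderm than in endoderm, with 1997 reads in endoderm against 4067 in mesoderm and 105 in epiblast. Of the repressors that switch *Afp* off after birth, *Zhx2* had 260 reads in endoderm against 970 in mesoderm and 807 in epiblast and was called higher in mesoderm than in endoderm. *Zbtb20* had 54, 20 and 6 reads.

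Among 15 hepatocyte enzymes, 2 were called higher in endoderm than in both other layers and the other 13 were not. *Ass1*, a urea cycle gene, was among those called, with 5125 reads in endoderm against 160 in mesoderm and 704 in epiblast. *Arg1* was called higher in mesoderm than in endoderm, with 153, 467 and 206 reads in endoderm, mesoderm and epiblast. *Tdo2* had 8, 304 and 0 reads. Over the 8 enzymes with over 3 reads in any library, the median log2 ratio was 2.19 to mesoderm and 2.18 to epiblast. *Cps1*, *G6pc*, *Cyp7a1*, *Cyp3a11* and *Uox* were listed in no library. *Tat* and *Hpd*, enzymes of amino acid breakdown, had 4 and 2 reads in endoderm.

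**Figure D5:**
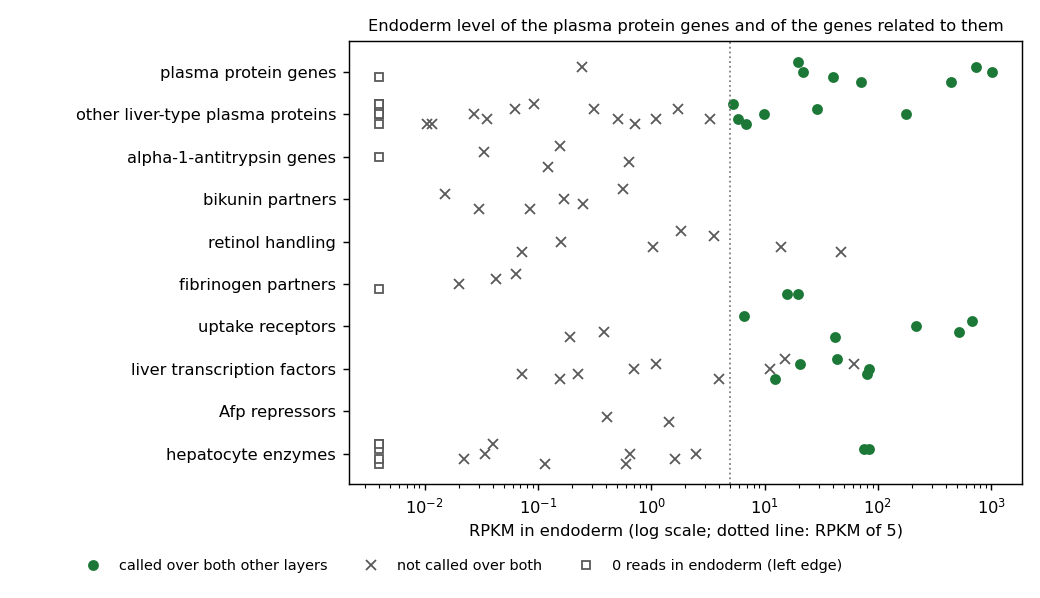
RPKM in endoderm (log axis) of the 9 plasma protein genes and of the genes in 9 related lists, 1 symbol per gene, with vertical offsets for legibility and some symbols overlapping. Filled green circles are genes called higher than in both other layers, crosses are genes not called over both, and open squares at the left edge had 0 reads in endoderm. 7 of the 9 plasma protein genes and 20 of the 87 genes in the lists are filled, and the dotted line marks an RPKM of 5.

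Of the other neighbours, *Dsg2* was called higher in endoderm than in both other layers. Beside *Ttr*, *Dsg2* (desmoglein 2) had 13958 reads in endoderm against 2848 in mesoderm and 3160 in epiblast, while *B4galt6* and *Trappc8* were not called and *Dsg3* had 2, 2 and 0 reads. Beside *Rbp4*, *Pde6c* had 196 reads in endoderm and 0 in both other layers, at an RPKM of 1.59, and *Fra10ac1*, under an older symbol, had 412, 394 and 425. Beside *Ahsg*, *Dnajb11*, a chaperone gene of the secretory pathway, had 6644, 3441 and 3131 reads, and *Hrg* had 2, 0 and 0.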

How the data were processed

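Germ layers of E7.5 ICR mouse embryos were sequenced with paired-end reads, 1 library for each. The authors deposited, per gene, the count of uniquely mapped reads without normalization, the gene length, the coverage as a percent of that length, and the RPKM. The deposited RPKM is the count scaled by gene length and library total. TopHat and GRCm38 are named for the splicing analysis of the study, whereas the aligner, annotation and use of strand of these gene tables are not given in the sources used here. Unlisted genes were set to 0 reads. Counts of 0 set a floor of 3 reads, and 95% intervals are exact Poisson (reads) or exact binomial (ratios), which cover counting error only.

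Counts of all genes read in 1 or both libraries of a pair were compared with the exact test by Audic and Claverie (two-sided), and p-values were adjusted by Benjamini-Hochberg over them. A lone library gives no dispersion, which a quasi-likelihood fit needs. An alternative was the edgeR exact test at coefficients of variation set to 0.2 or 0.4. Other alternatives were RPKM>1, RPKM>10, no RPKM minimum, Fold Change>4, a pseudocount of 1, TMM, median of ratios, upper quartile, totals without the 9 genes, and Benjamini-Yekutieli adjustment. For calls, a denominator of 3 reads or fewer was set to 3. Named genes were the 9 genes, list genes with the highest RPKM in endoderm or with no reads, the 2 protein-coding genes on each side, and the nearest gene in pattern. The genes and lists were chosen with earlier results of these data known. Examples of list genes with low reads were partly named after their values were seen. Some list genes are counted but not reported by name here, and 1 planned promoter word was left out. The test was tested on simulated data. Gene positions came from GENCODE M21 (GRCm38). Computation used edgeR 4.0.16 in R 4.3.3, and SciPy 1.17.1, numpy 2.4.6, pandas 2.3.3 and matplotlib 3.10.9 in Python 3.11.15.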

Additional observations from a re-analysis of the deposited data

How the results depend on the processing

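The 7 genes called higher in endoderm than in mesoderm and than in epiblast were the same genes under all 12 alternatives. Without the RPKM criterion 1 gene, *Ttr*, was called between mesoderm and epiblast. Of the genes in the related lists, 36 were called without that criterion, against 20, and between 15 (RPKM>10) and 27 (RPKM>1) under the others, with 16 for edgeR's exact test at an assumed coefficient of variation of 0.4. The other liver-type plasma proteins called numbered 2 at RPKM>10 and 11 without a minimum, against 6. A pseudocount of 1 lowered the folds of the 9 genes by up to 45.7 times, for *Afp* to 358 and for *Fga* to 20.9 over mesoderm, and other scalings moved them by at most 1.10 times. TMM shifted the median log2 ratio of all genes by 0.11 in both comparisons with endoderm. No called difference was reversed, while the ratio of *Afp* between mesoderm and epiblast, 1.05 as reported, was 0.999 after scaling to the same upper quartile. No paired analysis was possible because each germ layer has 1 library. Depth limits what can be said of *Alb*, *Ahsg* and every gene with 3 reads or fewer.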
